A study of Mus musculus with 157 samples.

Results

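Livers with high and with low scores of heat-shock chaperone transcripts were compared among 157 male pre-Collaborative Cross mice. A heat-shock index was taken for each mouse as the mean deposited score of Hsph1 (ENSMUSG00000029657), Dnajb1 (ENSMUSG00000005483) and Hspa8 (ENSMUSG00000015656). Hsp90aa1 (ENSMUSG00000021270), the remaining one of the 4 genes that define the index, was not analysed here. The 40 mice with the highest index formed the high group and the 40 with the lowest the low group, which left 77 mice in between. These groups were made from measured values and are not groups of the study. The pairing of the index identifiers with symbols is part of the definition of the index, and neither the value table nor the reference tables give it.

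Each mouse came from a different partly inbred strain, and every strain descends from a cross of 8 founders, namely the classical strains A/J, C57BL/6J, NOD/LtJ, NZO/H1LtJ and 129S1/SvImJ and the wild-derived CAST/Ei, PWK/Ph and WSB/Ei. High, middle and low mice alike were males killed at 12 to 15 weeks of age, at the end of a 3-week programme with alcohol exposure and exercise, per the labels' protocols. The labels do not say which mouse had which exposure, so the groups could not be compared on it. With 1 mouse a strain, strain, treatment and the single animal cannot be told apart. Liver RNA was measured on whole-transcript arrays, 1 array a mouse, in 8 hybridization batches, and the mice fell into 10 cohorts by kill date. A deposited score ranks the 157 mice for 1 gene, runs between -2.49 and 2.49, and holds no expression level or fold change. Hepatocyte markers could therefore not be checked as levels. In whole liver, fewer cells of a type and less RNA per cell cannot be told apart.

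The heat-shock response raises chaperone transcripts when unfolded protein builds up or temperature rises. Heat shock factor HSF1, released from chaperones that hold it inactive, forms trimers and binds heat shock elements, which are repeats of the unit nGAAn in alternating direction. Hsph1 encodes HSP110, which exchanges nucleotide on HSP70 proteins and helps to dissolve aggregates. Dnajb1 encodes an HSP40 co-chaperone that hands clients to HSP70, and it is a strongly inducible HSF1 target. Hspa8 encodes HSC70, the cognate HSP70 that is made in unstressed cells as well. In mouse liver, transcripts of this kind also follow a daily rhythm with feeding and body temperature.

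Promoters of the index genes are shown because the index rests on genes known as HSF1 targets. Promoter windows of RefSeq (GRCm38.p6) matched 2 of the 3 index genes by symbol. The 250 bases before the first listed transcript start were read for each of them. Capitals mark paired units of a heat shock element, searched as GAANNTTC and TTCNNGAA, each of which reads the same on both strands.
Hsph1, chr5:149636337-149636586, minus strand: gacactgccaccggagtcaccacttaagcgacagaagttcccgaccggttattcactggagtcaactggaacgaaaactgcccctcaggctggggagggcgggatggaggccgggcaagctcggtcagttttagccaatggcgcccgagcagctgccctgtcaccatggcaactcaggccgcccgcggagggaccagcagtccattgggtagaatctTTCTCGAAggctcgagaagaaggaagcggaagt
Dnajb1, chr8:83607925-83608174, plus strand: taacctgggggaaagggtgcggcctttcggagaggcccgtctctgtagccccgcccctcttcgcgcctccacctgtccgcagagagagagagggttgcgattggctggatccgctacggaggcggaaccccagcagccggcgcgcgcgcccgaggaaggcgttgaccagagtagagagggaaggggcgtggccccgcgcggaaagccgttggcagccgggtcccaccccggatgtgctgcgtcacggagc
The Hsph1 window held 1 match, TTCTCGAA, and the Dnajb1 window 0. Of all 32851 promoter windows of this length, 6.69% held GAANNTTC, 7.17% held TTCNNGAA and 12.8% held at least 1 of them. A match in so short a motif is a description of the letters, and a window without one says nothing of HSF1 binding.

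The index chose the groups, so the values of its genes are given without a test. The index had its lowest, median and highest value at 0.532, 0.917 and 1.72 in high livers, at -0.504, -0.0012 and 0.524 in middle livers and at -2.10, -0.892 and -0.516 in low livers. The edges were close, with the mouse just inside the high group at 0.532 and the one just outside at 0.524, and the mouse just inside the low group at -0.516 and the one just outside at -0.504. The groups are thus the 2 ends of a continuous range and not separate clusters of mice.

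Hsph1 ranged from 0.0635 to 2.49 with a median of 0.990 in high livers, against -2.49 to 0.976 with a median of -1.13 in low livers. All 40 high livers lay above 0 for Hsph1, and so did 6 of the 40 low livers. Dnajb1 ranged from -0.143 to 2.49 with a median of 1.04 in high livers, against -2.49 to 0.0953 with a median of -0.951 in low livers. For Dnajb1, 38 high livers and 2 low livers lay above 0. Hspa8 ranged from -0.478 to 2.49 with a median of 0.881 in high livers, against -2.49 to 0.684 with a median of -1.02 in low livers. The overlap was widest for Hspa8, with 30 high livers and 8 low livers above 0. All 3 genes were above 0 in 28 high livers, and the other 12 had 2 of 3 above 0. All 3 were below 0 in 23 low livers, and 17 had 2 of 3 below 0.

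**Figure D1:**
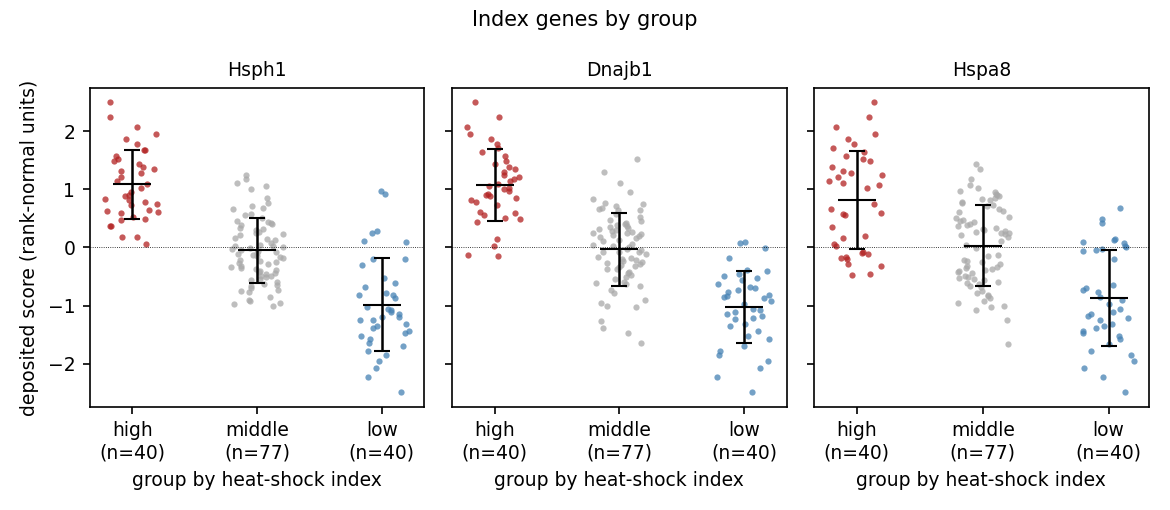
Deposited scores of Hsph1, Dnajb1 and Hspa8 (vertical axis, rank-normal units) in the 40 high, 77 middle and 40 low livers; each point is a mouse, and bars give the mean and SD of a group. Hsph1 lies above 0 in all 40 high livers, while Hspa8 lies above 0 in 30 of them, and the groups were chosen on these values.

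Hsph1 and Dnajb1 followed each other more closely than either followed Hspa8. Over the 157 mice, Pearson's r was 0.667 and Spearman's rho 0.616 between Hsph1 and Dnajb1, with r between 0.502 and 0.825 within the 8 batches. Between Hsph1 and Hspa8, r was 0.340 and rho 0.309, with r between 0.140 and 0.679 within batches. Between Dnajb1 and Hspa8, r was 0.326 and rho 0.297, with r between 0.0701 and 0.730 within batches. Without the 2 mice farthest from the median of the first gene of the pair, r was 0.641, 0.334 and 0.340 in the same order of pairs. Leaving 1 gene out of the index kept 34 high and 31 low mice in their group without Hsph1, 35 and 29 without Dnajb1, and 35 and 30 without Hspa8.

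High and low livers came from the same hybridization batches in nearly the same numbers but unevenly from the kill cohorts. Cohort 6 held 5 high and 0 low livers among its 10 mice, and cohort 8 held 9 high and 2 low livers among 22. Cohort 4 held 0 high and 4 low livers among 5 mice, and cohort 5 held 0 high and 4 low livers among 6. The mean index was -0.979 ± 0.520 in cohort 4 (SD, n = 5), -0.629 ± 0.575 in cohort 5 (SD, n = 6), 0.568 ± 0.803 in cohort 6 (SD, n = 10) and 0.359 ± 0.681 in cohort 8 (SD, n = 22). In the other 6 cohorts it lay between -0.157 and 0.134. Cohorts 4, 5 and 6 followed each other in date, so the lowest cohort means stood next to the highest one.

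The counts of high and low livers over the 10 cohorts gave a permutation p of 0.0144 (chi-square of the 80 mice, 100000 resamples, adjusted p = 0.130 over 9 labels), which did not pass the threshold of 0.05 after adjustment. Over all 157 mice, cohort accounted for 15.7% of the variance of the index (permutation p = 0.0024, adjusted p = 0.0216), which did. Hybridization batch accounted for 3.14% (adjusted permutation p = 0.714), fluidic station for 2.77%, slot for 2.39% and the block of 1000 strain numbers for 4.68% (adjusted permutation p = 0.575 for each of these 3). The most uneven block, that of strain numbers from 1000 up to the next 1000, held 1 high and 7 low livers among 14 mice, and station 1 held 13 high and 7 low livers, against 8 high and 14 low livers at station 2. Kill day, taken as a straight line, accounted for 0.0872% (adjusted permutation p = 0.714). High mice were killed on average 145 ± 94.3 days after the first kill day, and low mice 130.5 ± 91.5 days after it (SD, n = 40 each). The index thus differed between cohorts over all 157 mice, in a test that was not planned, while the planned test of the 80 mice did not pass. No straight trend over the kill days passed a test. Batch and cohort were both held in the limma fits that follow, unless a setting says otherwise. The permutation tests of array-wide measures held neither, and the slopes within single batches did not hold cohort.

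**Figure D2:**
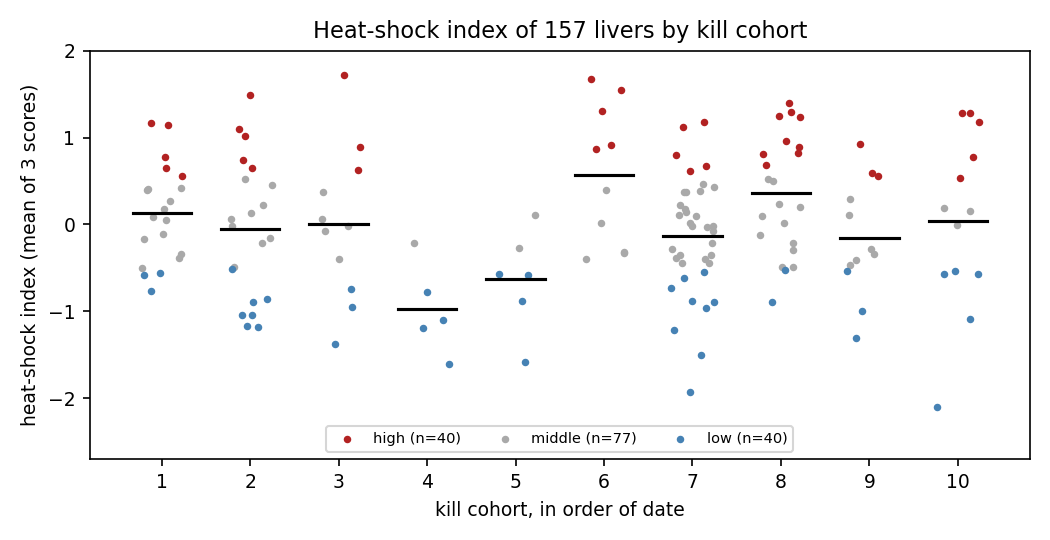
Heat-shock index (vertical axis, mean of 3 scores) of each of 157 livers by kill cohort in order of date; colours mark the 40 high, 77 middle and 40 low livers, and black bars the mean of a cohort. Cohorts 4 and 5 hold 4 low and 0 high livers each, and cohort 6 holds 5 high and 0 low livers.

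Genes outside the index differed between the groups in both directions. Of 23173 genes, 239 differed between high and low livers, which is 1.03% (limma with batch and cohort as covariates, Benjamini-Hochberg adjusted p under 0.05, n = 40 each). With cohort held, the difference rests mainly on the 7 cohorts that held both groups. In cohorts 4, 5 and 6 the chosen livers were all of 1 group. Of the 239 genes, 135 (0.583%) were higher and 104 (0.449%) lower in high livers. With each array's mean subtracted first, 304 genes were called, 216 higher and 88 lower, and without the 2 widest arrays 133 were higher and 181 lower. With component 1 of all genes held, 236 were higher and 295 lower, so which direction held more genes depended on the setting. The count itself also moved, to 854 with the index adjusted for batch and cohort before the mice were chosen and to 1119 with the index as a line over all 157 mice. At an unadjusted p under 0.05 there were 2664 genes. The 239 genes did not enter the index, but they were read on the same arrays as the genes that chose the mice. The counts thus say which genes went along with Hsph1, Dnajb1 and Hspa8 and not that a treatment changed them. Without cohort 8, the count was 133, of which 122 were among the 239.

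A score unit corresponds to about 1 SD of any gene across the 157 mice. The called differences ran from 0.868 to 1.84 among the 135 genes that were higher, with a median of 0.986, and from -0.868 to -1.36 among the 104 that were lower, with a median of -0.959. The median over all 23173 genes was -0.0518. More than 1 unit separated the groups for 63 of the higher and 42 of the lower genes. Averaged over the 135 higher genes, single mice ranged from -0.284 to 1.58 with a median of 0.428 in the high group, against -1.07 to 0.200 with a median of -0.537 in the low group. Averaged over the 104 lower genes, single mice ranged from -1.38 to 0.184 with a median of -0.425 in the high group, against -0.582 to 1.37 with a median of 0.452 in the low group. The groups overlapped on both averages. As these genes were called on the same mice, the averages describe them and are no further test.

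Averages over the called genes differed in the same direction in each batch and in each cohort that held both groups. The genes were called on these same mice, so one direction throughout describes them and is no further test. The average over the 135 higher genes was above that of low livers in 8 of 8 batches, by 0.604 to 1.51, and in 7 of the 7 cohorts that held both groups, by 0.756 to 1.31. The average over the 104 lower genes was below that of low livers in 8 of 8 batches, by -0.569 to -1.14, and in 7 of 7 cohorts, by -0.636 to -1.46. Whether the relation to the index differed between cohorts 7 to 10 and cohorts 1 to 6 was tested by an interaction over all 157 mice. Limma called 0 genes for it, with 2360 at an unadjusted p under 0.05; the smallest adjusted p was 0.247, and the unmoderated linear model called 0 as well.

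Array-wide measures moved with the groups in part, in tests that held neither batch nor cohort. The mean score of an array was -0.0166 ± 0.112 in high and 0.0315 ± 0.117 in low livers (SD, n = 40 each, permutation test, adjusted p = 0.115 over 7 measures). Component 5 of all genes outside the index, which held 1.87% of the variance, was 0.391 ± 1.07 in high and -0.376 ± 0.862 in low livers (adjusted permutation p = 0.00448). Component 4, with 2.43% of the variance, was 0.309 ± 1.21 in high and -0.261 ± 0.794 in low livers (adjusted permutation p = 0.0490). Within batches, high livers had the higher mean in 7 of 8 batches for either component, with differences from -0.0652 to 1.33 for component 5 and from -0.0915 to 1.54 for component 4. Component values are scaled to an SD of 1 over the mice and their sign is arbitrary. Component 1, the largest with 12.1% of the variance, was -0.0243 ± 1.05 in high and 0.214 ± 1.15 in low livers (adjusted permutation p = 0.397). With components 4 and 5 as further covariates, 38 genes were called, 31 higher and 7 lower, and 35 of them were among the 239. The components were computed from genes that include the 239, and their part in the differences was not tested beyond this fit.

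The 77 middle mice had no part in choosing the 239 genes, and the relation was measured again in them as a slope of each gene over the index. No gene was called there (limma, adjusted p under 0.05, 0 of 23173, 0%), with 1502 genes, or 6.48%, at an unadjusted p under 0.05, and the unmoderated linear model called 1. The index spans little more than 1 unit among these mice, and the SE of a slope was 0.423. In simulated data on 23173 genes, 0 of 100 genes with a slope of 2 noise SD per index unit were recovered by this fit, so a count of 0 was not informative at this size.

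The directions in the middle mice could still be read. Of the 135 genes that were higher in high livers, 115 (85.2%) had a positive slope in the middle mice, against 58.5% of all genes. Of the 104 lower genes, 82 (78.8%) had a negative slope there, against 41.5% of all genes. The median slope was 0.438 for the higher and -0.326 for the lower genes, against 0.0958 for all genes. An unadjusted p under 0.05 with a positive slope was found for 22 of the 135 (16.3%), against 4.35% of all genes, and one with a negative slope for 11 of the 104 (10.6%), against 2.14% of all genes. Among the higher genes, the median slope was 0.378 for the 72 with a difference of up to 1 unit, 0.452 for the 40 with 1 to 1.2 units and 0.821 for the 23 above 1.2 units. Of those 23 genes, 21 had a positive slope. Among the lower genes, the median slope was -0.317 for the 62 with a difference of up to 1 unit and likewise for the 39 with 1 to 1.2 units. It was -0.709 for the 3 beyond that, which are too few to tell whether the slope is graded. The genes vary together over mice and are not independent, so these shares carry no p-value.

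**Figure D3:**
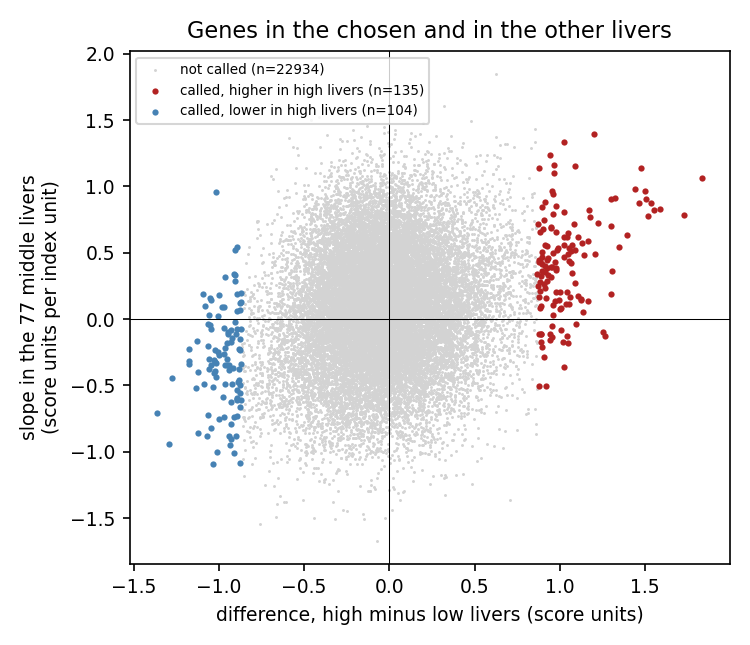
Difference of each of 23173 genes between high and low livers (horizontal axis, score units) against its slope over the index in the 77 middle livers (vertical axis, score units per index unit); red and blue points are the 135 higher and 104 lower genes called between high and low livers, grey points the other genes. Of the red points 115 lie above 0, and of the blue points 82 lie below 0.

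The called genes also varied together among the middle mice. After batch and cohort means were taken out, the mean correlation between 2 genes was 0.121 among the 135 higher genes and 0.118 among the 104 lower ones, against 0.0111 over all gene pairs (77 mice). With the index taken out as well, it was 0.102, 0.110 and 0.0105 in the same order. These mice were chosen for a narrow range of the index (SD 0.304, against 0.774 over all 157 mice), so taking it out could remove little.

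As no table pairs the other Ensembl identifiers with symbols, 4 identifiers are printed, the 2 with the largest positive and the 2 with the largest negative difference among the called genes, and no role is given for them. ENSMUSG00000019916 had its lowest, median and highest score at -0.578, 1.10 and 2.49 in high livers, at -1.48, 0 and 1.31 in middle livers and at -2.49, -0.932 and 0.208 in low livers. Of the 40 high livers, 39 lay above 0 and 36 above the highest low liver, whereas 1 low liver lay above 0. The difference was 1.84 ± 0.250 (SE, limma adjusted p = 4.78e-09). In the middle mice its slope was 1.07 ± 0.423 per index unit (SE, limma unadjusted p = 0.0117, adjusted p = 0.743).

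ENSMUSG00000001774 had its lowest, median and highest score at -0.340, 1.03 and 2.49 in high livers, at -1.48, 0.0794 and 1.77 in middle livers and at -2.49, -0.914 and 0.705 in low livers. Above 0 were 33 high and 4 low livers, and 26 high livers lay above the highest low one. The difference was 1.73 ± 0.250 (SE, limma adjusted p = 5.37e-08). Its slope in the middle mice was 0.781 ± 0.423 (SE, limma unadjusted p = 0.0646), in the same direction.

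ENSMUSG00000045193 had its lowest, median and highest score at -2.49, -0.768 and 1.03 in high livers, at -1.86, -0.0159 and 2.24 in middle livers and at -1.77, 0.892 and 2.49 in low livers. Above 0 were 7 high and 34 low livers, and 39 of 40 high livers lay below the median of the low ones. The groups overlapped widely, as 4 high livers lay below the lowest low one. The difference was -1.36 ± 0.250 (SE, limma adjusted p = 8.67e-05). With components 4 and 5 held it was -1.05 ± 0.287 (SE, limma adjusted p = 0.0863), no longer past the threshold. Its slope in the middle mice was -0.709 ± 0.423 (SE, limma unadjusted p = 0.0935).

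ENSMUSG00000022369 had its lowest, median and highest score at -2.49, -0.532 and 1.31 in high livers, at -2.08, -0.0476 and 2.24 in middle livers and at -1.61, 0.631 and 2.49 in low livers. Above 0 were 10 high and 31 low livers. The difference was -1.29 ± 0.250 (SE, limma adjusted p = 0.000265), and the slope in the middle mice was -0.940 ± 0.423 (SE, limma unadjusted p = 0.0261).

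The SE of 0.250 is the same for the 4 identifiers because moderation replaced each gene's own spread by a shared value. From its own spread, the SE was 0.153 for ENSMUSG00000019916, 0.168 for ENSMUSG00000001774, 0.191 for ENSMUSG00000045193 and 0.231 for ENSMUSG00000022369. The adjusted p of the unmoderated linear model ran from 1.67e-13 to 0.00052 among them. For the slopes in the middle mice, the SE from the own spread was 0.213, 0.247, 0.319 and 0.390 in the same order. There the adjusted p of the unmoderated linear model ran from 0.0638 to 0.725, and none passed the threshold. The identifiers were picked on mice that the next slopes also use, so one sign in every batch describes them and is no further support. Within each of the 8 batches, the slope over the index was positive for both rising identifiers, from 0.794 to 1.34 for ENSMUSG00000019916 and from 0.519 to 1.16 for ENSMUSG00000001774. It was negative in 8 of 8 batches for both falling ones, from -0.509 to -1.57 for ENSMUSG00000045193 and from -0.0578 to -0.938 for ENSMUSG00000022369. In cohorts 7 to 10 the slope of ENSMUSG00000019916 was 1.08 ± 0.150, and in cohorts 1 to 6 it was 0.838 ± 0.167 (SE, limma adjusted p of the difference 0.757).

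**Figure D4:**
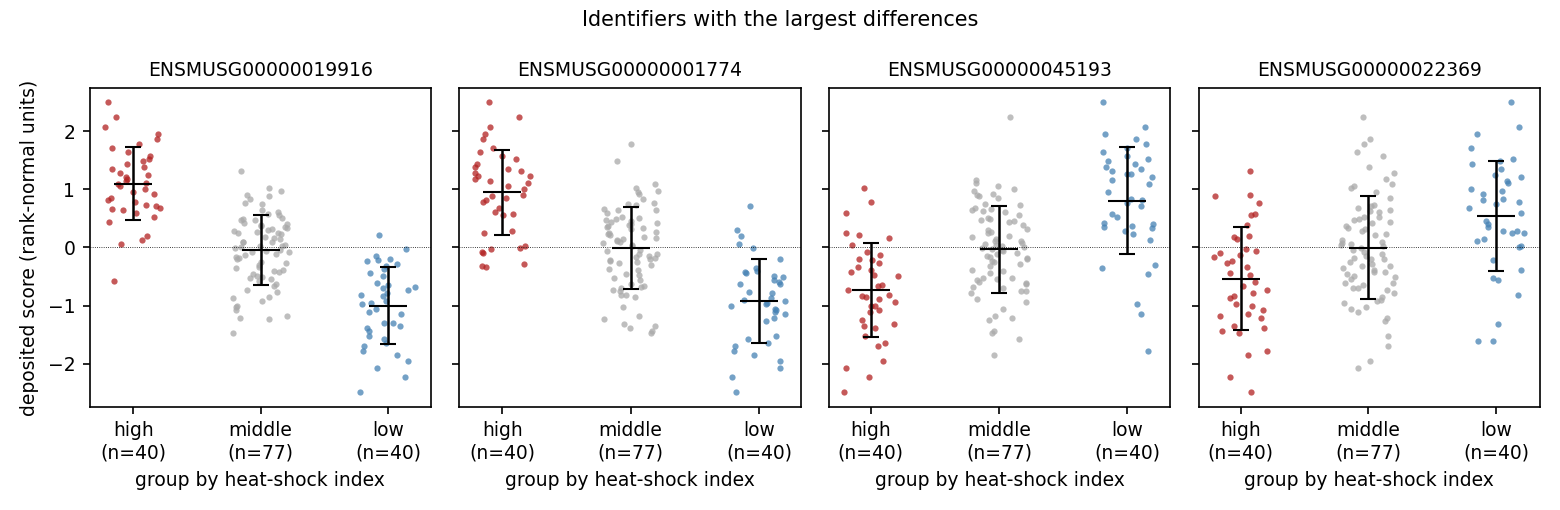
Deposited scores (vertical axis, rank-normal units) of the 2 identifiers with the largest positive and the 2 with the largest negative difference, in the 40 high, 77 middle and 40 low livers; each point is a mouse, and bars give the mean and SD of a group. For ENSMUSG00000019916, 36 high livers lie above every low liver, while the groups overlap widely for ENSMUSG00000045193 and ENSMUSG00000022369.

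The 3 index genes were also set apart from each other. With Hsph1, Dnajb1 and Hspa8 fitted together over all 157 mice, with batch and cohort held, limma called 130 genes (0.561% of 23173) for Hsph1, 53 with a positive and 77 with a negative slope. It called 40 genes (0.173%) for Dnajb1, 34 positive and 6 negative, and 3 genes (0.0129%) for Hspa8, 2 positive and 1 negative. The SE of a slope was 0.128 for Hsph1, 0.143 for Dnajb1 and 0.0848 for Hspa8, so the low count for Hspa8 did not come with a larger error. Of the 239 genes that separated the groups, 33 were called for Hsph1, against 130 of all 23173 genes. For Dnajb1 it was 6 of the 239 against 40 of all genes, and for Hspa8 0 of the 239 against 3. The share was thus higher among the 239 than over all genes for Hsph1 and Dnajb1. Both fits use the same mice, so the overlap is no separate support. Most genes called here lay outside the 239. The difference between 2 slopes was tested as well. It was called for 19 genes (0.082%) between Hsph1 and Hspa8, for 17 genes (0.0734%) between Dnajb1 and Hspa8, and for 0 genes (0%) between Hsph1 and Dnajb1 (limma, 2096 at an unadjusted p under 0.05).

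Among the 135 genes that were higher in high livers, the median slope was 0.275 on Hsph1, 0.203 on Dnajb1 and 0.00998 on Hspa8, each with the other index genes held. Medians over all genes were 0.0179, -0.0202 and -0.0154 in the same order. Among the 104 lower genes, it was -0.243 on Hsph1, -0.138 on Dnajb1 and -0.0675 on Hspa8. These mice include those on which the genes were called, so the direction of the medians is no separate support. For ENSMUSG00000019916 the slope was 0.379 ± 0.128 on Hsph1, 0.551 ± 0.143 on Dnajb1 and 0.0142 ± 0.0848 on Hspa8 (SE), and its limma adjusted p of 0.173, 0.0597 and 0.987 did not pass for any of them. For ENSMUSG00000001774 it was 0.534 ± 0.128 on Hsph1 (SE, limma adjusted p = 0.0141), 0.307 ± 0.143 on Dnajb1 and 0.0179 ± 0.0848 on Hspa8. Choosing the groups by Dnajb1 and Hspa8 alone gave 63 called genes, against 225 by Hsph1 and Hspa8 and 392 by Hsph1 and Dnajb1.

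**Figure D5:**
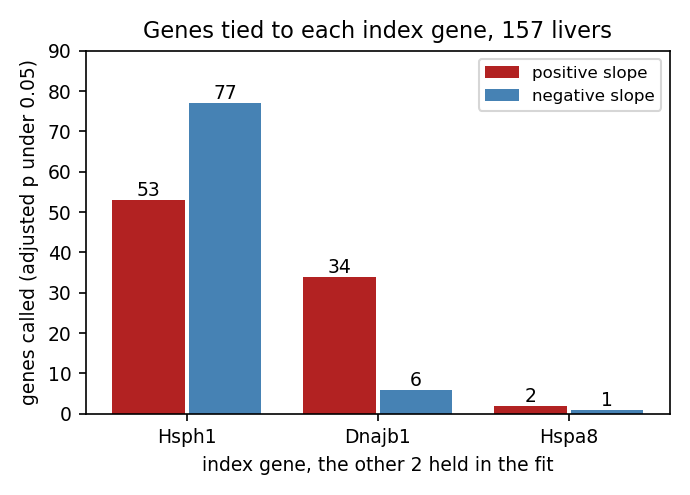
Number of genes called (vertical axis, limma adjusted p under 0.05) for each index gene with the other 2 held in the fit, over 157 livers; red bars count positive and blue bars negative slopes. Hsph1 has 53 and 77 genes, Dnajb1 34 and 6, and Hspa8 2 and 1.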

How the data were processed

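Liver RNA of 157 mice was measured on 1 array each. Per the series design text, the authors summarised probes by a custom chip definition of Ensembl genes (NCBI 37, Ensembl 49). The submitters' processing notes name RMA and affy without versions. What they deposited is 1 score for each gene in each array. In all 23176 rows a score equals, within 0.0001, the normal quantile of the rank that the array takes for the gene, a step no label describes. A filter on low values has no meaning for ranks and none was used.

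The index, the groups, lists and tests were chosen with earlier results of these data known. Kill dates at most 3 days apart formed a cohort. Models were fitted to all 23173 genes outside the index by lmFit and eBayes of limma 3.58.1, run in R 4.3.3 (without trend, since a score has no level). Moderation gave all genes 1 shared spread, so p-values hold no spread of the single gene. Permutations (100000, two-sided for differences of means) used Python 3.11.15 and numpy 2.4.6. Simulated data held 23173 genes that varied independently, with batch but no cohort effects, and were ranked after the differences were added. There, the fit between high and low livers recovered 7 of 100 genes that differed by 0.5 noise SD. It recovered 52 of 100 that differed by 1 noise SD and 98 of 100 that differed by 1.5 noise SD. The same fit also called 10 genes that had been given no difference. The number of arrays limits the precision.

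The gene lists and the rule for named genes needed symbols. The reference tables paired 0 of the Ensembl identifiers, so the lists (cell type markers included) were not used, and the rule was narrowed afterwards to 2 identifiers in each direction. Slopes on single index genes and components 4 and 5 as covariates were chosen after seeing the data. Alternatives are given in the closing section.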

Additional observations from a re-analysis of the deposited data

How the results depend on the processing

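The 239 genes that differed between high and low livers kept their direction in all 22 alternatives. They were called on largely the same mice, so one direction throughout is no further support. In 9 of the 22 alternatives the count of called genes stayed within 1.5 times. It became 854 with the index adjusted for batch and cohort before the mice were chosen, 131 with 30 mice a group, 63 without Hsph1 in the index and 392 without Hspa8. It was 1119 with the index as a line over all 157 mice, 628 with 3 groups over all mice, 133 without cohort 8, 613 without covariates and 672 with batch only. With component 1 held it was 531 (236 higher and 295 lower), with station and slot 147, with components 4 and 5 (added) 38, and by a rank-sum test 146. Without the 2 widest arrays 133 genes were higher and 181 lower. Fits over all mice hold more mice, and the smaller groups fewer; otherwise the cause was not tested. Without moderation, the count in the middle mice was 1 in place of 0, and those for Hsph1 and Dnajb1 alone 230 in place of 130 and 86 in place of 40.

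Over all 157 mice, in permutation tests that were not planned, the adjusted p was 0.0216 for kill cohort and 0.0363 for components 2 and 3. None of these passed in the planned permutation tests between the groups of 40 (adjusted p = 0.130, 0.115 and 0.116). The 4 printed identifiers stayed past the threshold in 22 of 22 alternatives, except ENSMUSG00000045193 with components 4 and 5 held. They were picked on largely the same mice, so this is no separate support either. The index without Hsp90aa1 is the index used, and no alternative was run for it. No low-value filter was possible on ranks. No paired analysis was possible because the labels number no replicates and each mouse is its own strain. No mouse stood apart from its cohort on the index or its 3 genes, in the 3 cohorts of 5 to 10 mice where this was tested.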
